A study of Mus musculus with 41 samples.

Results

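The genes described here were 38 protein-coding genes of the fibroblast extracellular matrix and contractile apparatus, found by symbol among the 24028 gene symbols of 13 RNA-seq libraries of mouse androgenetic haploid embryonic stem cells (AG-haESCs), which carry a single chromosome set of sperm origin. They were chosen because earlier results of the same data had shown fibroblast genes in 3 of these libraries, 2i-14 p39, TSa2i-14 p54 and TSa2i-C57 p58, where p is the passage number. The levels in these 3 libraries are therefore given as a description, with no test, and the tests of medium used only libraries among the other 10.

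The study asked how culture medium preserves paternal imprints in AG-haESCs. All lines were labelled C57BL/6 and were kept on feeder layers of ICR embryonic fibroblasts, and haploid cells were enriched by FACS. The wild-type line 2i-14 was kept in 2i/L, a medium with serum, LIF, the MEK inhibitor PD0325901 and the GSK3 inhibitor CHIR99021, and was sequenced at passages p18, p39 and p50. Also wild-type were the lines TSa2i-14 (p22, p47 and p54) and TSa2i-C57 (p9 and p58), derived by the TSa2i/L protocol and maintained in SF/a2i/L, which is free of serum and has the Src inhibitor CGP77675 in place of PD0325901. In 2i-O48 both H19-DMR and IG-DMR are deleted, and the gene H19 is deleted besides in 2i-O48-TKO. Each of these lines gave 1 library in 2i/L and 1 library 5 passages after transfer to SF/a2i/L, and 2i-14 gave 1 such switched library. The labels give no passage number for the switched cells, 2i-O48 or 2i-O48-TKO. Each library is 1 culture, and libraries of 1 line do not stand for independent derivations, so p-values measure the spread between these cultures. The line 2i-O48-TKO is named after 2i-O48, so both may share 1 derivation. No library of feeder cells alone was analysed here. No passage number occurs in more than 1 wild-type line, so the wild-type libraries are named p9 (TSa2i-C57), p18 (2i-14), p22 (TSa2i-14) and so on.

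Fibroblasts build connective tissue. They secrete fibrillar collagens, which are wound into triple helices and cross-linked outside the cell by lysyl oxidase, and coat the fibrils with small leucine-rich proteoglycans and glycoproteins. Proteases of the matrix metalloproteinase family and their inhibitors remodel this matrix. Fibroblasts that become contractile add smooth muscle actin and its partners, which makes them myofibroblasts, and a layer of such cells under embryonic stem cells provides attachment and secreted factors.

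Expression was given in FPKM, which scales fragment numbers to transcript length and to library depth, and compared as log2(FPKM + 1), a scale on which the changes of low genes are understated. FPKM files carry no counts. Depth implied by the smallest FPKM steps was 12800000 to 20000000 fragments, so 3 fragments on a 1 kb transcript correspond to 0.15 to 0.234 FPKM, with counting error alone considered. Between 9258 and 10320 genes had at least 1 FPKM. MicroRNA loci took 67.2% of the summed FPKM in switched 2i-14 and 23.2% in p18, and the sums without these loci were 651108 to 735365. Each library is bulk RNA, and fewer cells of a type and less RNA per cell cannot be told apart in such data. The paper amplified cDNA from small numbers of haploid cells with a single-cell kit. The part of cell sampling and amplification in low values, zeros and large ratios was not tested.

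Regulatory sequence is shown for 4 members that carry different results: Cyr61, which fell after the switch; Acta2, of the contractile set; Mmp3, a protease; and Col3a1, a fibrillar collagen. Each line gives the 250 bases before the RefSeq start in GRCm38.p6, 5′ to 3′ on the strand of the gene, with motifs in capitals. Capitals mark CATTCC, the core bound by TEAD factors, searched on both strands. They also mark TATAAA, the letters of an element that can place the start of transcription, searched at any position on both strands. The window of Cyr61 is chr3:145649986-145650235 on the minus strand. The window of Acta2 is chr19:34255374-34255623 on the minus strand. The window of Mmp3 is chr9:7445572-7445821 on the plus strand. The window of Col3a1 is chr1:45311288-45311537 on the plus strand.
Cyr61: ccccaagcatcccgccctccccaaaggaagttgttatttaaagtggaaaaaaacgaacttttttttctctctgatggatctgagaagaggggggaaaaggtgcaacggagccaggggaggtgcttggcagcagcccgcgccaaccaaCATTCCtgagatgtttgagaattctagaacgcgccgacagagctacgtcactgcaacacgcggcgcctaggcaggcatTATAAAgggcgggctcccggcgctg
Acta2: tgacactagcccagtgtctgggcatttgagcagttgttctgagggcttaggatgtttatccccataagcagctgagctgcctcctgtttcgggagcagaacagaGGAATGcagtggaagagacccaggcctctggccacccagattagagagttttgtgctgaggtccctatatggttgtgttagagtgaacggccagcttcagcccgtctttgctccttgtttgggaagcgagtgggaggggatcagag
Mmp3: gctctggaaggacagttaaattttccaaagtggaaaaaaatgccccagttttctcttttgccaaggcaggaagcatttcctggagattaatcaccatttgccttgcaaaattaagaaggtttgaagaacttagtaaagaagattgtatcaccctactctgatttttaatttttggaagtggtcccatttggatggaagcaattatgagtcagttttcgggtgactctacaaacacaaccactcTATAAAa
Col3a1: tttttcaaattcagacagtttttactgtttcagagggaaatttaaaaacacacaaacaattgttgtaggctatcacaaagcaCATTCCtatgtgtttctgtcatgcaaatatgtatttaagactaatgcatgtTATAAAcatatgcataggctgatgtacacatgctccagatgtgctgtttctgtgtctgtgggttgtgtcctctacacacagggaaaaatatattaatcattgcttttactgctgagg
In Cyr61 the CATTCC began 103 bases and the TATAAA 25 bases before the start. In Acta2 the CATTCC lay on the opposite strand, with its leftmost base 146 bases before the start. The TATAAA began 7 bases before the start in Mmp3. In Col3a1 the CATTCC began 168 bases and the TATAAA 117 bases before the start. Whether any of these copies places a start was not tested. RefSeq windows were matched for 23 of the 38 members, 26 windows in all. CATTCC was in 6 of the 26 windows (23.1%), against 12.6% of all 32851 windows of this length, and TATAAA was also in 6 (23.1%), against 12.4%. The exact consensus of the CArG box, the element bound by serum response factor, was in 0 of the 26 windows and in 1.47% of all windows. Forms that depart from the consensus, as known from the Acta2 promoter, were not searched, so this count does not say that the element is absent. These matches describe letters in the windows and do not show that a factor binds there.

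The mean of the 38 genes was highest in the 3 libraries that had been used to choose them, although Fn1, Sparc and Timp1 each peaked in another library. The mean log2(FPKM + 1) over the 38 genes was 3.51 in p39, 3.42 in p54 and 2.73 in p58. It was 1.91 in p22 and 1.29 to 1.70 in the other 9 libraries. The number of members at 1 FPKM or more was 28 in p39, 31 in p54 and 27 in p58, against 17 in p22 and 10 to 14 in the other 9. Within 2i/L the high library lay between 2 passages with low means, 1.50 at p18 and 1.38 at p50, and in TSa2i/L the late library p47 had a mean of 1.70.

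**Figure D1:**
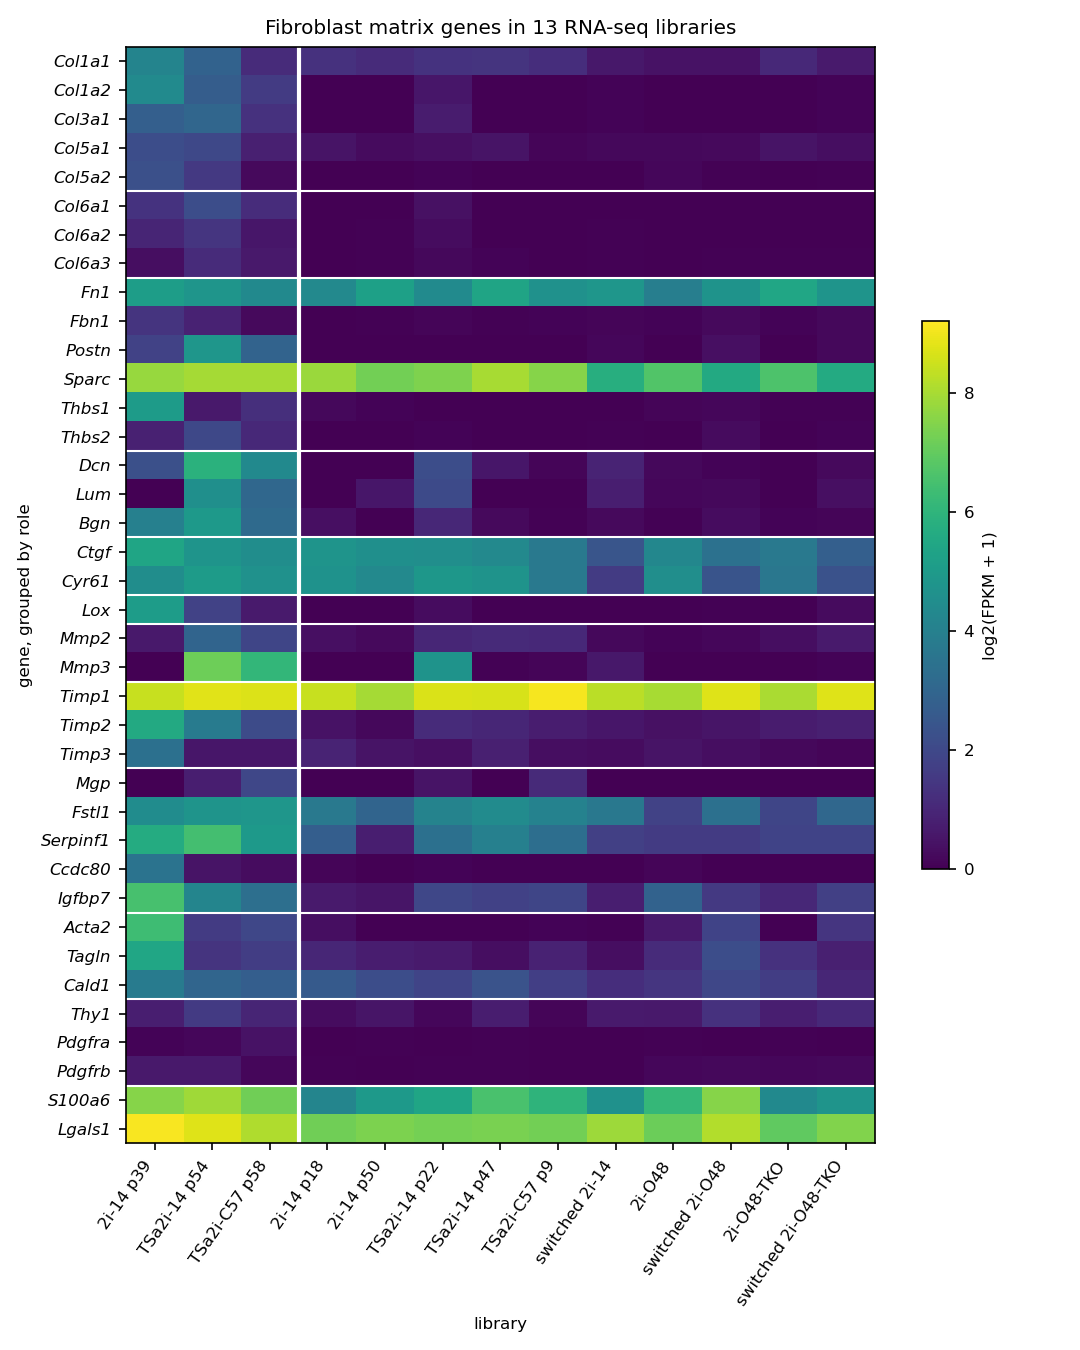
Heat map of log2(FPKM + 1) for the 38 genes (rows, grouped by role, with white lines between roles) in 13 libraries (columns); the white vertical line parts the 3 libraries the genes were chosen on from the 10 others. Collagens, proteoglycans, Lox and the contractile genes are dark in nearly all of the 10 other libraries, while Sparc, Timp1, S100a6 and Lgals1 are bright in every column.

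The genes fell into 3 classes by their level in the 10 other libraries. A set of 8 members (Fn1, Sparc, Ctgf, Cyr61, Timp1, Fstl1, S100a6 and Lgals1) had at least 1 FPKM in all 10, which is 21.1% of the members, against 33.7% of all genes. A set of 16 members was under 1 FPKM in all 10 (42.1%, against 52.1% of all genes), and the other 14 crossed 1 FPKM among these libraries. Both shares of the members were below those of all genes.

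Y-linked RNA was read beside these classes. Eif2s3y, which encodes a Y-linked translation initiation factor subunit, was 3.12 FPKM in p39, 2.07 in p54, 1.22 in p58, 0.166 in p22 and 0.124 in switched 2i-14. The other 8 libraries list it at 0, and its pattern was known from earlier results of these data. Ddx3y, a Y-linked RNA helicase, was 0.851, 0.386 and 0.274 FPKM in the same 3 libraries and 0.0980 in p22. In those 8 libraries the same 8 members had at least 1 FPKM throughout (21.1%, against 34.3% of all genes), and 21 members stayed under 1 FPKM throughout (55.3%, against 52.5% of all genes). The name of fibroblast genes from feeder cells thus covers 8 genes that were also at 1 FPKM or more in every library that lists Eif2s3y at 0. Whether any of the 38 genes came from feeder cells was not tested.

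**Figure D2:**
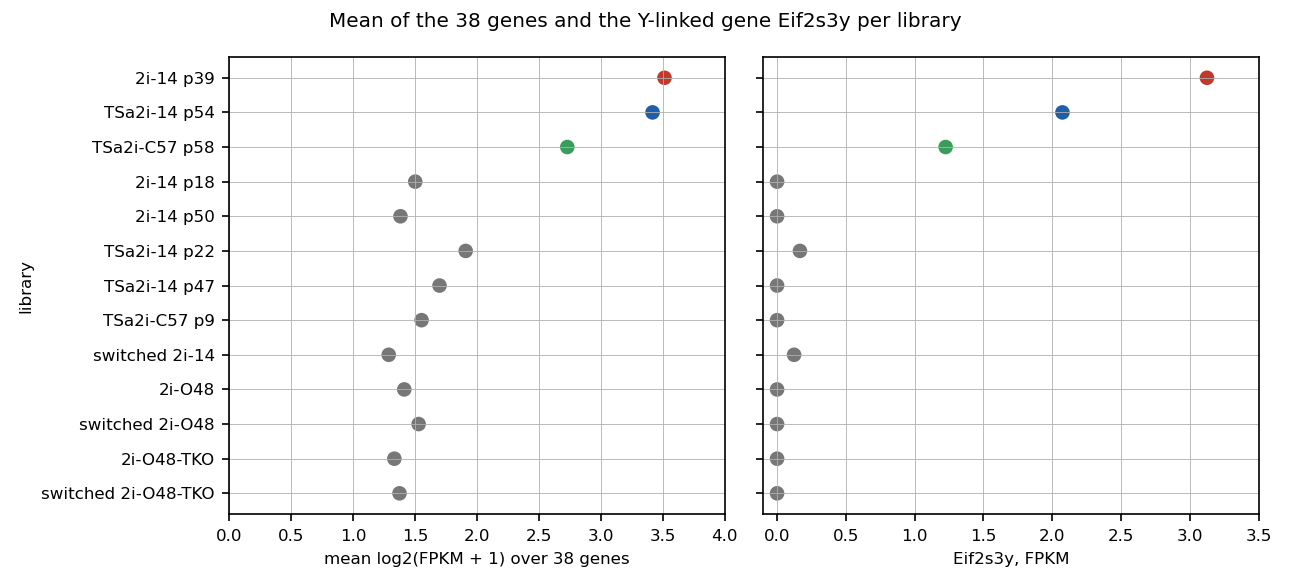
Mean log2(FPKM + 1) over the 38 genes (left) and FPKM of the Y-linked gene Eif2s3y (right), 1 point per library, with the 3 libraries used to choose the genes in colour. Those 3 lead in both panels, with Eif2s3y at 3.12, 2.07 and 1.22 FPKM, and 8 libraries list Eif2s3y at 0.

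The members include receptors and surface proteins that mark fibroblasts, namely Pdgfra, Pdgfrb and Thy1. They belong to the set chosen on the same 3 libraries, so their levels there are no outside check of the name. Pdgfra and Pdgfrb, the platelet-derived growth factor receptors of mesenchymal cells, were under 1 FPKM in all 13 libraries. Pdgfra was 0.0646 FPKM in p39, 0.116 in p54 and 0.352 in p58, against at most 0.0444 in the 10 others. Pdgfrb was 0.531 FPKM in p39, 0.536 in p54 and 0.116 in p58, against at most 0.157. Thy1, a surface glycoprotein of many fibroblasts, was 0.718 FPKM in p39, 1.95 in p54 and 0.944 in p58, against 0.0966 to 1.50 in the 10 others. Pdgfra thus lay above the 10 others in all 3 libraries and Pdgfrb in p39 and p54, at levels under 1 FPKM, while Thy1 overlapped the 10 others in p39 and p58. In p39, 3 fragments of Pdgfra would amount to 0.0297 FPKM, so its value there rests on few fragments.

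Fibrillar collagens were high together in p39 and p54 and lower in p58. Col1a2, the second chain of type I collagen, was 20.2 FPKM in p39, 5.50 in p54 and 2.01 in p58, and had a lowest value of 0, a median of 0.0118 and a highest value of 0.477 in the 10 others. Col1a1, its partner chain, was 16.9, 6.37 and 1.18 FPKM in the same order, and 0.351 to 1.59 in the 10 others with a median of 1.12. All 3 libraries stood above the 10 others in Col1a2, whereas the value of Col1a1 in p58 lay inside their range. The gene model of Col1a1 overlaps an annotated gene on the opposite strand, and the strand setting of the quantification is not given in the sources used here.

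Col3a1, the chain of type III collagen, was 5.86 FPKM in p39, 7.24 in p54 and 1.50 in p58, and at most 0.612 in the 10 others. Type V chains, which nucleate fibrils, were lower: Col5a1 was 3.49, 2.98 and 0.746 FPKM and Col5a2 was 3.76, 1.86 and 0.170 FPKM in that order. The ratio of Col1a2 to Col3a1 was 3.45 in p39, 0.760 in p54 and 1.34 in p58. Type I collagen thus led type III in p39, and type III led in p54.

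Collagen VI, a beaded filament of pericellular matrix, was highest in p54. Col6a1 was 1.54 FPKM in p39, 3.57 in p54 and 1.22 in p58. Col6a2 was 0.924, 1.66 and 0.467 FPKM and Col6a3 was 0.252, 1.18 and 0.553 FPKM. In the 10 others these chains reached at most 0.331, 0.248 and 0.146 FPKM. All 3 chains lay above the 10 others in each of p39, p54 and p58.

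Among the glycoproteins, periostin and thrombospondin 1 were highest in different libraries. Postn, a matricellular protein of collagen-rich tissue, was 2.52 FPKM in p39, 27.4 in p54 and 6.66 in p58, and at most 0.306 in the 10 others. Thbs1, which encodes thrombospondin 1, was 31.9 FPKM in p39, 0.549 in p54 and 1.35 in p58, and at most 0.144 in the 10 others. Postn was thus 10.9-fold higher in p54 than in p39, while Thbs1 was 58.1-fold higher in p39.

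Thbs2 followed Postn, with 0.806, 3.00 and 1.08 FPKM in p39, p54 and p58. Fbn1, the main protein of microfibrils, was 1.58, 0.840 and 0.186 FPKM, and at most 0.161 in the 10 others. Fn1, which encodes fibronectin, did not separate the libraries at all: it was 33.9, 26.97 and 19.6 FPKM in the 3 and 14.3 to 42.0 in the 10 others, with a median of 25.7.

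Small leucine-rich proteoglycans, which bind collagen fibrils and set their spacing, were highest in p54. Dcn (decorin) was 3.76 FPKM in p39, 58.2 in p54 and 19.6 in p58. It was 3.55 FPKM in p22, and its median in the 10 others was 0.121. Lum (lumican) was listed at 0 in p39 and was 23.1 FPKM in p54, 7.42 in p58 and 3.19 in p22. Bgn (biglycan) was 15.2, 29.99 and 7.997 FPKM in the 3 libraries, and 0 to 1.05 in the 10 others. Biglycan was thus present in all 3 libraries, whereas lumican was listed at 0 in p39, where 3 fragments would amount to 0.0939 FPKM.

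Proteases parted p39 from p54 and p58. Mmp3 (stromelysin 1) was listed at 0 in p39 and was 142 FPKM in p54 and 66.4 FPKM in p58. It was 25.3 FPKM in p22 and at most 0.514 FPKM in the other 9 libraries. Mmp2 (gelatinase A) was 0.546 FPKM in p39, 6.78 in p54 and 2.83 in p58, against 0.0658 to 1.15 in the 10 others. Besides p54 and p58, only p22 was above 0.514 FPKM, and p22 is not among the 3 libraries used to choose the genes. In p39, 3 fragments of Mmp3 would amount to 0.108 FPKM. That floor covers fragment counting only and not the small number of cells amplified.

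The collagen cross-linker Lox and the protease inhibitors Timp2 and Timp3 were highest in p39. Lox (lysyl oxidase) was 33.0 FPKM in p39, 2.53 in p54 and 0.597 in p58, and at most 0.233 in the 10 others. Timp2 was 47.1, 13.03 and 3.27 FPKM in the same order, and 0.140 to 1.19 in the 10 others. Timp3 was 9.49 FPKM in p39, but its 0.459 and 0.488 FPKM in the other 2 libraries lay inside the range of the 10 others, 0.0853 to 0.888. The models of Timp2 and Timp3 overlap other genes (Timp3 with Syn3 on the opposite strand, Timp2 with BC100451 on the same strand), so fragments could be shared between them.

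Contractile genes were highest in p39. Acta2, which encodes smooth muscle actin, was 79.8 FPKM in p39, 1.99 in p54 and 2.89 in p58. In the 10 others it had a lowest value of 0, a median of 0.0506 and a highest value of 2.57, the last in switched 2i-O48. Tagln, which encodes the actin-binding protein transgelin, was 42.9, 1.63 and 2.15 FPKM in the 3 libraries and 0.256 to 3.53 in the 10 others. In p54 both genes lay inside the range of the 10 others, and in p58 Tagln did so while Acta2 lay just above it. Tagln was 26.3-fold higher in p39 than in p54. Cald1 (caldesmon) differed less, with 13.03, 7.05 and 5.74 FPKM against 0.963 to 5.12.

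Other secreted proteins were mixed. Igfbp7, a binding protein of insulin-like growth factors, was 90.9 FPKM in p39, 17.2 in p54 and 9.33 in p58, and Ccdc80 was 10.405, 0.383 and 0.248 FPKM. Serpinf1, which encodes pigment epithelium-derived factor, was 49.1, 86.0 and 29.5 FPKM, and 0.699 to 15.2 in the 10 others. Mgp (matrix Gla protein) was listed at 0 in p39 and was 0.698 FPKM in p54 and 2.90 in p58. Mgp was above 0 in 4 libraries, all of them TSa2i/L, the other 2 being p9 at 1.12 FPKM and p22 at 0.410 FPKM.

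**Figure D3:**
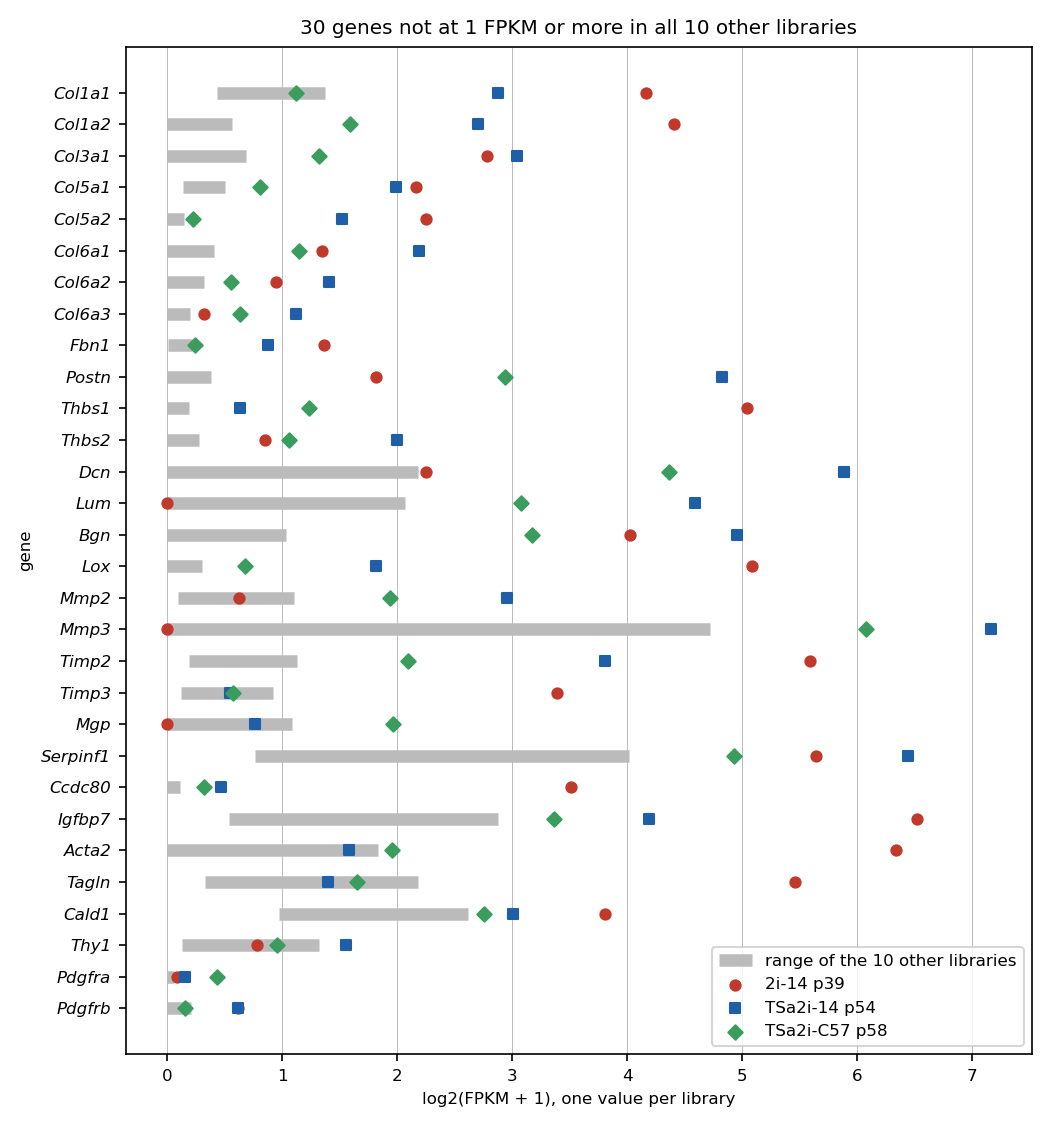
log2(FPKM + 1) of the 30 genes that did not have at least 1 FPKM in all 10 other libraries, with 1 symbol per library for p39, p54 and p58, and a grey bar from the lowest to the highest of the 10 others. Acta2, Tagln, Thbs1, Lox and Timp3 are furthest right in p39, with Lox also right of the grey bar in p54 and p58 and Thbs1 in p58 and p54, while Mmp3, Lum, Dcn and Postn are furthest right in p54, with p58 next.

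The composition of the set summarises this. Contractile genes made up 7.16% of the summed FPKM of the 38 genes in p39, against 0.555% in p54 and 0.790% in p58. Matrix proteases made up 0.0288%, 7.75% and 5.07% in the same order, and the small leucine-rich proteoglycans 1.00%, 5.79% and 2.57%. The 8 members at 1 FPKM or more in all 10 other libraries held most of each sum. They gave 1408 of 1895 FPKM in p39, 1466 of 1923 in p54 and 1184 of 1364 in p58, so the shares depend on them too. The profile of p39 was thus rich in type I collagen, lysyl oxidase and contractile genes, and the profiles of p54 and p58 in stromelysin, proteoglycans and periostin.

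p54 and p58, which come from different lines, resembled each other more than either resembled p39. Over the 38 genes, the log2 ratio of FPKM + 1 between p54 and p58 had a median of 0.66 and an SD of 0.75 across genes. Against p39 the SD was 2.37 for p54 (median 0.13) and 2.17 for p58 (median -0.74). Over all 38 genes the Pearson correlation of log2(FPKM + 1) across genes was 0.95 between p54 and p58, 0.57 between p54 and p39, and 0.63 between p58 and p39. Over the 30 genes left after the 8 widely expressed ones are set aside, it was 0.92 between the pair of TSa2i/L libraries, and 0.12 and 0.14 with p39. These are correlations across genes that share libraries, gene lengths and the choice of the set. Medium and line differ together between p39 and the other 2 libraries and cannot be told apart.

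Ratios within a library gave the same picture. Dcn per Col1a2 was 0.186 in p39, 10.6 in p54, 9.74 in p58 and 7.45 in p22. Lum per Dcn was 0.396 in p54 and 0.378 in p58, and 0.898 in p22. Mmp3 per Dcn was 2.44, 3.38 and 7.12 in these 3 libraries. p22, at lower levels, thus shared the order of Mmp3, Dcn and Lum with p54 and p58 but listed Postn at 0. The late TSa2i/L library p47 did not share this order, with Dcn at 0.486 FPKM, Mmp3 at 0.0367 and Lum at 0.

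**Figure D4:**
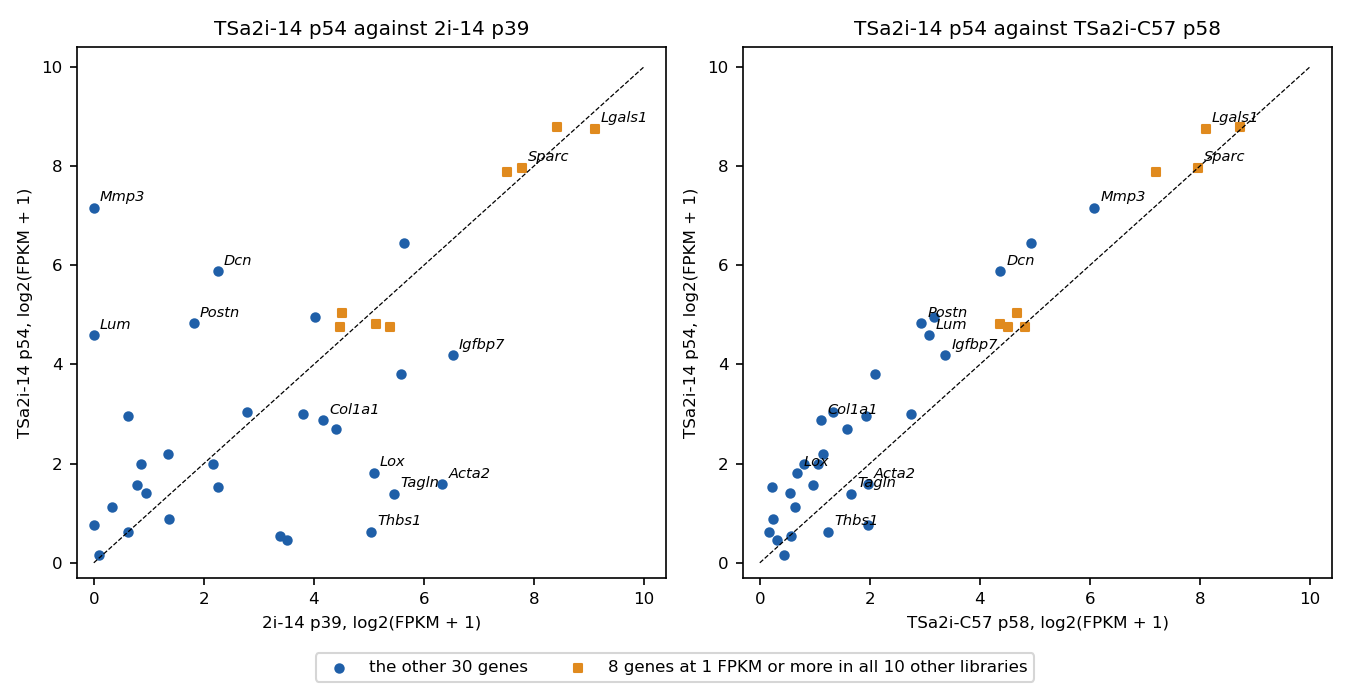
log2(FPKM + 1) of the 38 genes in p54 (vertical axes) against p39 (left) and p58 (right), 1 point per gene, with the dashed line marking equal levels and squares the 8 genes at 1 FPKM or more in all 10 other libraries. Points scatter on both sides of the line at left, with Mmp3 and Lum at 0 in p39, and lie mostly just above it at right.

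The members were read against a simple size rule, at least 1 unit of log2(FPKM + 1) above the highest of the 10 others. Over all genes at 1 FPKM or more in at least 1 of the libraries compared, 1.07% passed in p39, 0.898% in p54 and 0.37% in p58. Of the 38 members, 18 passed in p39, 18 in p54 and 7 in p58, and 3 passed in all 3 libraries (Col1a2, Postn and Bgn). Since the members were chosen on these libraries, the counts describe the choice.

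Genes of the same tissue programme that were not members were counted by the same rule. Of 32 further structural matrix genes, 10 passed in p39, 3 in p54 (Mfap2, Tnc and Ecm1) and 1 in p58 (Tnc). Aspn (asporin) was 10.8 FPKM in p39 and at most 0.218 FPKM elsewhere, and Fbln2 (fibulin 2) was 12.3, 5.49 and 2.19 FPKM in the 3 libraries and at most 2.68 in the 10 others. Fbln1 (fibulin 1) was 11.6, 16.3 and 15.6 FPKM and 4.37 to 19.0 in the 10 others, so that it did not separate them.

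Of 28 enzymes of matrix processing, 4 passed in p54 (Loxl3, Bmp1, Mmp13 and Ctsk) and 0 in p58. Ctsk (cathepsin K), a collagen-degrading protease, was 16.5, 3.27 and 1.74 FPKM and at most 0.523 in the 10 others. Pcolce, which promotes procollagen cleavage, was 34.9, 50.4 and 76.8 FPKM in the 3 and 18.8 to 56.99 in the 10 others. Pcolce thus overlapped the 10 others in p39 and p54, whereas Ctsk did not in any of the 3.

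Of 15 further contractile and actin genes, 4 passed in p39 (Actg2, Myl9, Tpm2 and Cnn1) and 0 in each of the other 2. Myl9, a myosin light chain of smooth muscle, was 50.5 FPKM in p39, 1.88 in p54, 3.83 in p58 and at most 3.81 in the 10 others. Vim (vimentin) was 85.7, 70.0 and 40.9 FPKM against 12.6 to 52.4. None of 12 genes of TGF-beta ligands, receptors and latency passed in any of the 3 libraries. The contractile genes that passed thus did so in the library where Acta2 and Tagln were highest.

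Factors known to be secreted by fibroblasts passed in all 3 libraries. Of 21 such factors, 6 passed in p39, 6 in p54 and 5 in p58. Ccl2, a chemokine for monocytes, was 11.5, 74.9 and 109 FPKM in the 3 and at most 2.12 in the 10 others. Ccl7, its neighbour in function, was 38.8, 46.9 and 16.5 FPKM, and Cxcl1, a chemokine for neutrophils, was listed at 0 in p39 and was 48.5 and 21.9 FPKM in p54 and p58. Igfbp3 was 12.3 FPKM in p39 and 1.96 and 1.64 in the other 2, against 0.680 to 1.87 in the 10 others. Cxcl1 and Igfbp3 thus parted p39 from the pair of TSa2i/L libraries, as Mmp3 and Acta2 did.

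Transcription factors of fibroblasts passed in 3 of 15 cases in p39 (Twist2, Prrx1 and Prrx2), in 2 in p54 (Prrx1 and Prrx2) and in 0 in p58. Prrx2, a homeobox factor of limb mesenchyme, was 26.0, 4.95 and 2.46 FPKM in the 3 and 0.161 to 1.92 in the 10 others. Of 18 Hox genes, 0 passed in any of the 3. Of the 4 Y-linked genes, Eif2s3y passed in p39 and p54. Xist, the RNA of X inactivation, was 0.338, 0.451 and 0.174 FPKM in the 3 and 0.0846 to 0.614 in the 10 others.

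Markers of other cell types were read in the same way. Of 9 pluripotency genes, all were at 1 FPKM or more in each of the 3 libraries and 0 passed, and their levels overlapped: Nanog was 334 FPKM in p39, 226 in p54 and 343 in p58, against 110.2 to 467 in the 10 others, and Pou5f1 was 99.2, 143 and 147 FPKM, against 59.6 to 168. Of 16 genes of primitive and parietal endoderm, 2 passed in p39 (Col4a1 and Col4a2), 1 in p54 (Dab2) and 0 in p58. Of 8 macrophage and leukocyte genes, Lyz2 passed in p39 at 1.35 FPKM, and of 7 muscle genes Acta1 passed there at 4.31 FPKM. None of the 7 early mesoderm, 6 endothelial, 6 keratinocyte or 9 cartilage and bone genes passed in any of the 3. The part of other cell types in the levels of the 38 genes was not tested. Genes named by count in these lists, beyond the highest of each list, were named after their values had been seen.

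The 10 non-members whose log2(FPKM + 1) followed the mean of the 38 genes most closely across the 13 libraries were Cav1, Eif2s3y, Tnc, Ptx3, Ch25h, Sqrdl, Cd44, Tgfb1i1, Gng11 and Prrx1, with Pearson r from 0.98 to 0.94. The 13 points include the 3 libraries used to choose the genes, and libraries of 1 line share that line. Cav1 (caveolin 1), the closest, was 19.7, 17.0 and 6.57 FPKM in the 3 and at most 0.739 in the 10 others. Ptx3, a secreted pentraxin, was 4.84, 10.2 and 1.31 FPKM and at most 0.601 in the 10 others.

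Some non-members were high in 1 of the 3 libraries. Of the genes at 5 FPKM or more in p39 and under 1 FPKM in the 10 others, the most specific were Mir3473f, Crct1, Lce1g, C1qtnf3 and Actg2. Crct1 and Lce1g were 17.0 and 16.8 FPKM in p39 and listed at 0 in p54 and p58. Neither is among the keratinocyte genes counted above, so that count does not cover them. C1qtnf3, a secreted adipokine, was 19.2 FPKM there and at most 0.173 in the other 2. Vcam1, an adhesion molecule for leukocytes, was 14.8 FPKM in p54, 0.862 in p58 and 0.223 in p39, and Mmp13, a collagenase, was 8.53 FPKM in p54. Fabp4, a fatty acid carrier, was 8.11, 11.4 and 13.4 FPKM in p39, p54 and p58 and at most 0.379 in the 10 others. C1qtnf3 and Vcam1 thus marked single libraries, and Fabp4 all 3.

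The members were then compared across media, in libraries that had not been used to choose them. The first comparison asked whether wild-type cells in TSa2i/L (p22, p47 and p9) differed from 2i-14 in 2i/L (p18 and p50). Igfbp7 was higher in TSa2i/L, and no other member passed. All 2i/L libraries here are of line 2i-14 and all TSa2i/L libraries are of other lines, so medium and line cannot be told apart in this comparison. By limma with Benjamini-Hochberg adjustment over 10310 genes, 2.22% of genes were called at an adjusted p under 0.05, 124 higher (1.2%) and 105 lower (1.02%) in TSa2i/L. Of the 38 members, 13 passed the filter of 1 FPKM in at least 2 of these libraries and 1 was called.

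Igfbp7 was 0.567 and 0.450 FPKM in p18 and p50, and 2.89, 2.42 and 2.77 FPKM in p22, p47 and p9. All 3 TSa2i/L libraries were above both 2i/L libraries, as they were in 18.6% of all tested genes (all below in 11.7%). The log2 change was 1.29 (SE 0.247, limma adjusted p = 0.0251). The call was lost when any 1 of the 5 libraries was left out (log2 change 1.24 to 1.35, limma adjusted p 0.0550 to 0.123), and with all 8 wild-type libraries, among them p39 at 90.9 FPKM, the log2 change was 0.07. Igfbp7 was under 1 FPKM in both 2i/L libraries, so it passed the filter only through the group where it was high. In 2i-O48, also in 2i/L, Igfbp7 was 6.35 FPKM, above all 3 of the TSa2i/L libraries. The model of Igfbp7 overlaps Polr2b on the opposite strand.

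S100a6, a calcium-binding protein, was 17.2 and 29.4 FPKM in p18 and p50 and 41.9, 93.1 and 61.6 FPKM in p22, p47 and p9, a log2 difference of 1.42 (SE 0.357) that missed the threshold (limma adjusted p = 0.0773). Serpinf1 was 5.66 and 0.699 FPKM against 9.42, 15.2 and 9.04 FPKM, with a log2 difference of 1.83 (SE 0.501, limma adjusted p = 0.105). Single libraries decided both values: S100a6 was called without p22 (log2 change 1.70, limma adjusted p = 0.0349) and without p50 (1.79, limma adjusted p = 0.01996). Serpinf1 was called without p18 (2.81, limma adjusted p = 0.00106), and its log2 difference without p50 was 0.84 (limma adjusted p = 0.473). Cyr61 had a log2 difference of -0.07 (95% confidence interval from limma -0.88 to 0.73) and Sparc of 0.14 (-0.43 to 0.71). Differences within these intervals were not excluded by these 5 libraries. Among the 15 further contractile genes, 10 were tested and Myl9 was lower in TSa2i/L, with a log2 change of -1.47 (SE 0.243, limma adjusted p = 0.0119). Myl9 was 3.22 and 2.89 FPKM in p18 and p50, and 0.624, 0.347 and 0.439 FPKM in p22, p47 and p9. It thus passed the filter only through the 2i/L group, where it was high.

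The second comparison paired each of the 3 switched cultures with its own line in 2i/L, taking p50 for 2i-14 and the line as a block. Cyr61 and Sparc fell and Fstl1 rose. None of these 6 libraries had been used to choose the genes. The fit counts 2i-O48 and 2i-O48-TKO as separate lines, although by name both may share 1 derivation. Agreement of all 3 lines is therefore not agreement of 3 independent derivations. By limma, 6.89% of 9759 genes were called, 217 higher (2.22%) and 455 lower (4.66%), and after median centring 386 were higher and 314 lower, since centring raised every log2 change by 0.17. Of the 38 members, 12 passed the filter of 1 FPKM in at least 3 libraries and 3 were called.

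Cyr61 (also CCN1), a matricellular protein and a common target of YAP and TEAD factors, was 19.2 FPKM in p50 and 2.00 in switched 2i-14, 22.5 and 4.25 FPKM in 2i-O48, and 11.5 and 3.93 FPKM in 2i-O48-TKO. Cyr61 was thus lower after the switch in all 3 lines, with a log2 change of -2.08 (SE 0.301, limma adjusted p = 0.0181). Leaving out each line in turn gave -2.46 to -1.75, with limma adjusted p from 0.00391 to 0.00647. Its RefSeq window, printed above, holds both CATTCC and TATAAA. The windows of Sparc and Fstl1, the other members called, hold neither. That of Timp1 holds CATTCC, and no window was matched for Ctgf. A part of TEAD factors in these changes was not tested. Ctgf (CCN2), the other member of the family, was 23.1 and 4.39 FPKM in 2i-14, 18.4 and 9.76 in 2i-O48, and 12.3 and 5.96 in 2i-O48-TKO. Its log2 change of -1.31 (SE 0.305) had a limma adjusted p of 0.0557 with the block and 0.0422 without it, and it was called in 4 of 12 alternatives.

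Sparc (osteonectin), a collagen-binding glycoprotein on chromosome 11 of NCBIM37 (chr11:55208002-55233582), was 149 and 54.001 FPKM in 2i-14, 102 and 46.9 in 2i-O48, and 98.0 and 48.2 in 2i-O48-TKO. Each line had less Sparc after the switch, and the log2 change was -1.19 (SE 0.183, limma adjusted p = 0.0204). Without 2i-O48-TKO the change was -1.28 and the adjusted p was 0.0882 by limma.

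Fstl1, a secreted follistatin-like glycoprotein, was 6.80 and 12.0 FPKM in 2i-14, 2.54 and 9.50 in 2i-O48, and 2.79 and 7.43 in 2i-O48-TKO. It was higher after the switch in all 3 lines, with a log2 change of 1.15 (SE 0.237, limma adjusted p = 0.0423). The call was lost without 2i-O48-TKO (limma adjusted p = 0.198), with p18 as the control (log2 change 0.90, limma adjusted p = 0.0967) and without the block (limma adjusted p = 0.0696). Fstl1 overlaps a pseudogene on the opposite strand.

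Lgals1 (galectin 1) and Timp1 were higher after the switch in all 3 lines and did not pass. Their log2 differences were 0.65 (SE 0.181, limma adjusted p = 0.0850) and 0.60 (SE 0.166, limma adjusted p = 0.0848). Fn1 had a log2 difference of -0.09 (95% confidence interval from limma -0.84 to 0.66), with 1 of 3 lines higher. Of the collagens, proteoglycans, proteases and Lox, none reached the filter, with highest FPKM of 1.17 for Col1a1, 0.873 for Dcn and 0.717 for Lum in these 6 libraries.

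Genes of the same tissue programme gave a few calls. Of 9 tested contractile and actin genes, Cnn2, Cnn3 and Myl9 fell. Cnn3 (calponin 3), the highest of the list, was 544 and 249 FPKM in 2i-14, 419 and 253 in 2i-O48 and 481 and 261 in 2i-O48-TKO, with a log2 change of -0.91 (SE 0.157, limma adjusted p = 0.0282). Myl9 fell by 1.38 on the log2 scale (SE 0.210, limma adjusted p = 0.0203). It was 2.89 and 0.173 FPKM in 2i-14, 3.81 and 1.45 in 2i-O48, and 2.39 and 0.262 in 2i-O48-TKO. Myl9 thus met the filter only with the 2i/L libraries, where it was high. Of 13 tested enzymes, Loxl2 fell (limma adjusted p = 0.0478). It was 1.60 and 0.388 FPKM in 2i-14, 2.02 and 0.935 in 2i-O48, and 1.67 and 0.503 in 2i-O48-TKO. Loxl2 thus passed the filter only through the 2i/L group, where it was high. The 1 tested secreted factor, Bmp4, rose by a log2 change of 2.86 (SE 0.589, limma adjusted p = 0.0423). Bmp4 was 0.302 and 26.8 FPKM, 3.66 and 8.32, and 0.0560 and 8.51 in the same lines, and met the filter only with the switched libraries, where it was high. Of 9 tested pluripotency genes, Nanog fell by 0.93 on the log2 scale (SE 0.201, limma adjusted p = 0.0483).

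The switched cultures and the long-term TSa2i/L cultures share the medium SF/a2i/L, and their levels of these genes lay apart. Sparc was 46.9 to 54.001 FPKM in the 3 switched libraries and 172 to 255 FPKM in the 5 TSa2i/L libraries. Cyr61 was 2.00 to 4.25 against 12.1 to 31.9 FPKM, Ctgf 4.39 to 9.76 against 12.2 to 26.0 FPKM and Fstl1 7.43 to 12.0 against 15.9 to 27.2 FPKM. None of these 4 genes overlapped between the groups. Over all genes at 1 FPKM or more in at least 3 of these 8 libraries, 17.2% had every TSa2i/L library above every switched one, and 4.65% had every one below. Of 21 members that could be read this way, 8 lay above (Col1a1, Sparc, Ctgf, Cyr61, Mmp2, Fstl1, Serpinf1 and Igfbp7) and 0 below. Col1a1 and Mmp2 were under 1 FPKM in all 3 switched libraries and could pass the filter only through the TSa2i/L libraries where they were high, and Mmp2 needed p54 or p58 to pass it, so the filter fixed part of these counts. The difference was not tested, 2 of the 3 switched libraries are of DMR-deleted lines, and 2 of the TSa2i/L libraries are among those used to choose the genes.

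**Figure D5:**
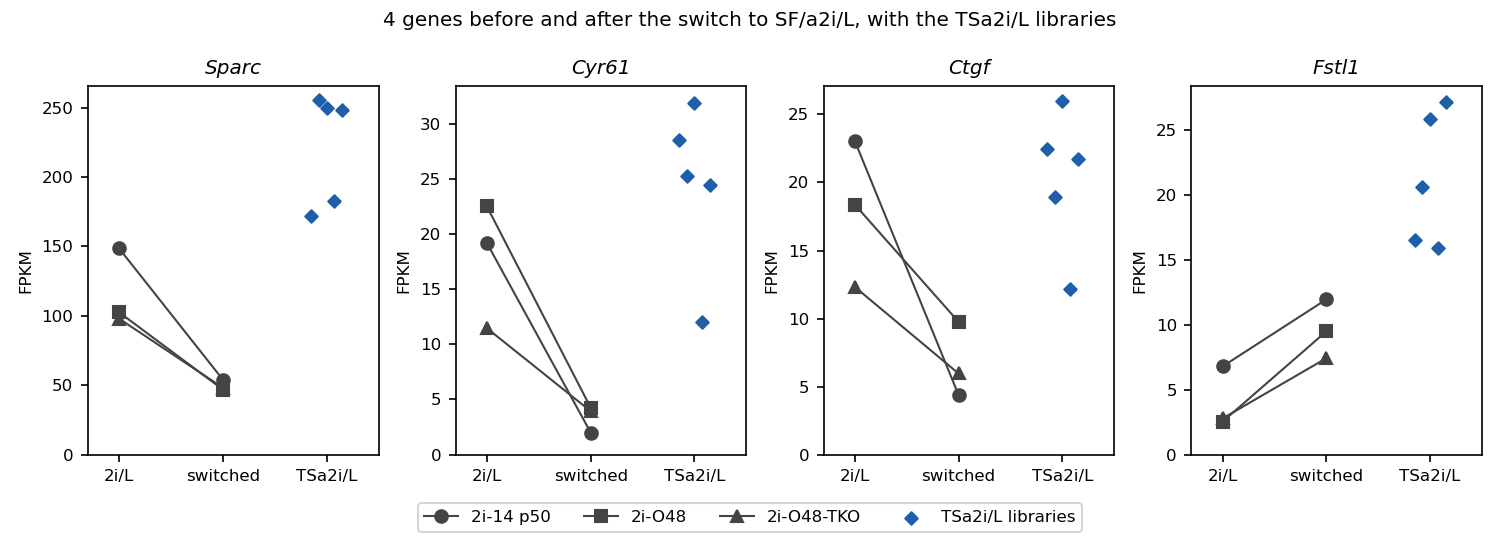
FPKM of Sparc, Cyr61, Ctgf and Fstl1 in 2i/L and after the switch to SF/a2i/L, with a line joining the libraries of each cell line, and in the 5 TSa2i/L libraries (diamonds, in the order p22, p47, p54, p9, p58). After the switch Sparc (46.9 to 54.001), Cyr61 (2.00 to 4.25) and Ctgf (4.39 to 9.76) are lower in every line and lie below all diamonds, and Fstl1 is higher in every line.

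The other widely expressed members were read across all 13 libraries. Timp1, a metalloproteinase inhibitor whose model overlaps Syn1 on the opposite strand, was 246 to 533 FPKM in the 10 others, with a median of 370.4, and 339.9, 441 and 423 FPKM in p39, p54 and p58. Lgals1 was 549.6, 431 and 274 FPKM in these 3, against 122 to 279 FPKM, and S100a6 was 182, 234 and 146 FPKM, against 17.2 to 186 FPKM. S100a6 in switched 2i-O48 was 186 FPKM, so that a high S100a6 was not confined to the 3 libraries with high collagen. Lgals1 stood above the 10 others in p39 and p54, and S100a6 did so in p54.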

How the data were processed

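RNA-seq values were analysed for 13 libraries; the methylation and chromatin samples were not analysed here. The authors amplified full-length cDNA from small numbers of haploid cells with a single-cell kit, mapped reads to mm9 and deposited FPKM values. The submitters' processing notes list TopHat2 2.0.11, Bowtie2 2.2.2 and Cufflinks 2.2.1. Gene annotation, scaling and strand setting are not given in the sources used here. Rows of a symbol were summed, and positions came from an NCBIM37 annotation. The members and gene lists were chosen with earlier results of these data known. Both comparisons used limma 3.58.1 (R 4.3.3) on log2(FPKM + 1) with an intensity trend and two-sided Benjamini-Hochberg adjusted p-values at 0.05. The switch comparison was blocked by line, since the labels give the same cell line, and deviations of paired libraries correlated at 0.17 (2i-14), -0.14 (2i-O48) and 0.36 (2i-O48-TKO). Named genes were the 38 members, up to 4 of each list by highest FPKM in the 3 libraries, the 10 most correlated non-members and up to 5 library-specific non-members per library. Scripts were tested on simulated data. Alternatives covered the pseudocount, filter, scaling, trend, repeated symbols, block, control library and leaving out libraries or lines. Python 3.11.15, numpy 2.4.6, pandas 2.3.3 and matplotlib 3.10.9 were used. The count of matrix-processing enzymes in p39 is not reported here.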

Additional observations from a re-analysis of the deposited data

Results flagged for a closer look

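S100a6 moved in opposite directions after the switch to SF/a2i/L, with a log2 difference of -0.29 in 2i-14, against 1.41 in 2i-O48 and a difference of 0.37 in 2i-O48-TKO. Each line gave 1 pair of libraries, and the difference between lines was not tested.

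Among the 5 TSa2i/L libraries, 1 library lay far from the other 4 in 5 of the 38 genes. Divided by the whole range of log2(FPKM + 1), the distance to the next library was 0.857 for Col1a1, 0.851 for Col5a2, 0.756 for Fbn1 and 0.744 for Pdgfrb, each with TSa2i-14 p54 highest. TSa2i-14 p54 and TSa2i-C57 p58 are among the libraries the genes were chosen on, so these values are a description and not a test, and the usual chance rate of such gaps (about 5%) does not apply to them. For Cyr61 it was 0.720, with TSa2i-C57 p9 lowest at 12.1 FPKM.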

How the results depend on the processing

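Alternatives were recomputed for Fstl1, Igfbp7, Mmp2, S100a6, Serpinf1 and Timp1 between TSa2i/L and 2i/L and for Ctgf, Cyr61, Fstl1, Lgals1, Sparc and Timp1 after the switch, and none of these changes reversed. These were the members at an unadjusted limma p under 0.05 in the reported fits, so the absence of reversals holds for that selection only. The alternatives of the other tested members are not reported here. In the comparison of TSa2i/L with 2i/L, the 229 calls became 39 without a filter, 111 at a mean FPKM of at least 5, 786 with all 8 wild-type libraries and 422 once both DMR-deleted lines in 2i/L joined the 2i/L group. Leaving out 1 library gave 49 to 246 calls, with 49 without TSa2i-14 p47. The 1 member called became 0 without a filter (limma, 2059 genes at an unadjusted p under 0.05), at the mean FPKM of at least 5 and with all 8 libraries, 2 (Serpinf1 and Timp1) with the DMR-deleted lines, and 0 to 1 with 1 library left out, never Igfbp7 (S100a6 without p22 or p50, Serpinf1 without p18).

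After the switch, the 672 calls became 0 without a filter (limma, 3206 genes at an unadjusted p under 0.05), 369 at a mean FPKM of at least 5 and 1483 with 2i-14 p18 as the control. Leaving out 1 line gave 311 to 1461 calls and 1 to 5 members, with 311 calls without 2i-O48-TKO, 1031 without 2i-14 and 1461 without 2i-O48. The 3 members called became 0 without a filter. Without the replicate block, 778 genes and 3 members (Ctgf, Cyr61 and Sparc) were called. The causes of these changes were not tested. With a pseudocount of 0.1 the member mean was 2.89 (p39) against 2.99 (p54), which turned their order. Depth limits genes near 0.15 to 0.234 FPKM.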
